A study of Drosophila melanogaster with 4 samples.

Results

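The embryos described here are the 2 youngest sets of 61 among 245 single embryos of Drosophila melanogaster, by the authors' pseudotime order, which ranks embryos by their transcriptomes. Embryo columns of the order were ranked from left to right with unfertilized eggs skipped. Ranks 1 to 61, called the earlier set, were compared with the 61 embryos from rank 62 on, called the later set. The embryos were spread over 4 multiplexed libraries as 18, 12, 16 and 15 in the earlier set and as 19, 20, 13 and 9 in the later set. All embryos were hybrids of DGRP_737 virgin females, an inbred wild-derived line, and DGRP_352 males, another inbred line, so that maternal and paternal transcripts differ at known variants. Parents were kept untreated at 25 °C and 60% humidity, and embryos up to 3 h old were collected. The 8 unfertilized eggs of the order served as the background without a zygotic genome.

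In the early fly embryo the nuclei divide rapidly in a common cytoplasm, and development runs on RNA and protein that the mother loaded into the egg. During the maternal-to-zygotic transition part of this maternal RNA is destroyed, first by factors that egg activation switches on in the absence of transcription, and later by products of the zygotic genome. Transcription begins in a minor wave of short, mostly intronless genes, among them signals of sex determination, regulators of dorsoventral and neural patterning and genes needed to form cell membranes, before the major wave starts at the mitotic pause.

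RNA of whole embryos was measured by a miniaturized CEL-Seq2 protocol, which primes polyadenylated RNA of each individual with a barcode and a unique molecular identifier (UMI). A loss of the poly(A) tail and a loss of the transcript therefore cannot be told apart, nor can fewer transcribing nuclei and less RNA per nucleus. UMIs assigned to genes ran from 247178 to 1802671 per embryo, with a median of 907317, in the earlier set, and from 417459 to 1725033, with a median of 835968, in the later set. The median number of genes detected was 7205 and 7089. Levels are given as CPM, the count of a gene per 1000000 gene UMIs of the embryo.

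One feature of the labels runs along with the comparison. Names of the individuals carry a digit whose meaning the labels do not give. All 61 embryos of the earlier set carried digit 1, while 56 of the later set carried digit 2 and 5 carried digit 1, at ranks 62, 64, 65, 66 and 68. The digit and the set cannot be told apart for most embryos. The embryo of rank 1 stood apart. In it, 24.9% of 5040 genes lay more than 2-fold from the earlier-set median, against a median of 0.357% over the embryos of that set, so ranges are given without it where it decides them.

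Among genes with enough counts to be tested, few rose and many fell by 2-fold or more between the sets. Of 5682 genes with enough counts to be tested by edgeR's quasi-likelihood test with library as a covariate, 24 were at least 2-fold higher in the later set and 366 were at least 2-fold lower at a Benjamini-Hochberg adjusted p under 0.05, which is 0.422% and 6.44% of the genes tested. All 24 risers were higher, and all 366 fallers lower, in each of the 4 libraries taken alone. They were called from the same 4 libraries together, so this shared direction largely follows from the choice and is no separate test. Because transcriptomes of these embryos also gave the order, the p-values are too small and describe only how far the sets stand apart. Calls below 2-fold were far more numerous and depended on the scaling. In all, 2375 genes were called higher (41.8%) and 1620 lower (28.5%), so that 59.5% of calls were higher, but with spike-in totals as the scaling 31 were called higher and 897 lower, and 3.34% of calls were higher. The median log2 fold change of all tested genes was 0.07 with the main scaling and -0.06 with spike-ins. Of the 2-fold calls, 24 risers and 365 fallers were also called at least 2-fold changed with spike-in scaling. After thinning each embryo to 300000 UMIs, which left 4469 genes to test, 8 were at least 2-fold higher and 258 at least 2-fold lower. The filter on counts needs a gene to be seen in many embryos, so genes that start late in the later set can fail it. Without the filter 124 of 10995 genes were at least 2-fold higher and 512 at least 2-fold lower. With counts summed per library and set the numbers were 104 and 476 of 7084 genes.

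**Figure D1:**
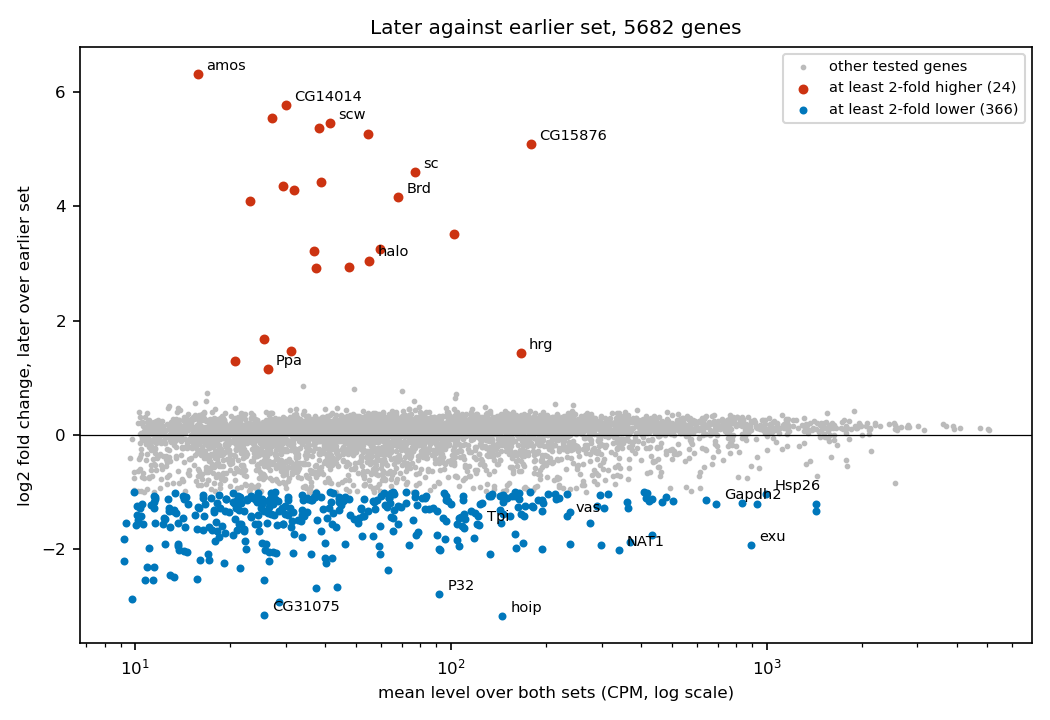
Each point is 1 of 5682 tested genes, with the mean level over both sets in CPM on a log axis and the fitted log2 fold change of the later over the earlier set on the vertical axis. The 24 genes at least 2-fold higher reach a log2 fold change of 6.31, the 366 genes at least 2-fold lower reach -3.18, and most genes lie in a narrow band around 0.

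The risers as a group took a median of 0.0254% of the UMIs of an embryo in the earlier set and 0.165% in the later set. Their summed level was between 140.9 and 399.5 CPM in the earlier set, with a median of 254 CPM, and between 167.7 and 359.7 CPM in the 8 eggs, so that the ranges of the earlier set and the eggs overlapped. In the later set it ran from 191.3 to 6491 CPM with a median of 1645 CPM, and 56 of 61 embryos were above the highest embryo of the earlier set. The sum first passed that level at rank 66 and last lay within it at rank 71. Medians within the later set were 531 CPM in its first 20 embryos, 1604 CPM in the next 20 and 3967 CPM in the last 21. At the boundary of the sets no step was seen. The sum was 293 CPM at rank 61 and 191.3 CPM at rank 62, and at the far edge it was 6491 CPM in the last embryo of the later set and 5953 CPM in the embryo after it.

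The fallers took a median of 4.97% of the UMIs in the earlier set and 1.72% in the later set. Their level in an embryo was summarised as the median over the 366 genes of the log2 ratio to the earlier-set median, each with 1 CPM added. Without the embryo of rank 1, which was at -0.49, this ran from -0.38 to 0.22 in the earlier set. In the later set it ran from -2.93 to -0.16, and 59 of 61 embryos were below those of the earlier set other than rank 1, or 57 with rank 1 included. The fall passed the level of -0.38 for the first time at rank 63 and was within it for the last time at rank 64. It deepened from a median of -0.71 in the first 20 embryos of the later set to -1.58 in the next 20 and -2.34 in the last 21. Both measures describe how the members were ordered and carry no test.

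**Figure D2:**
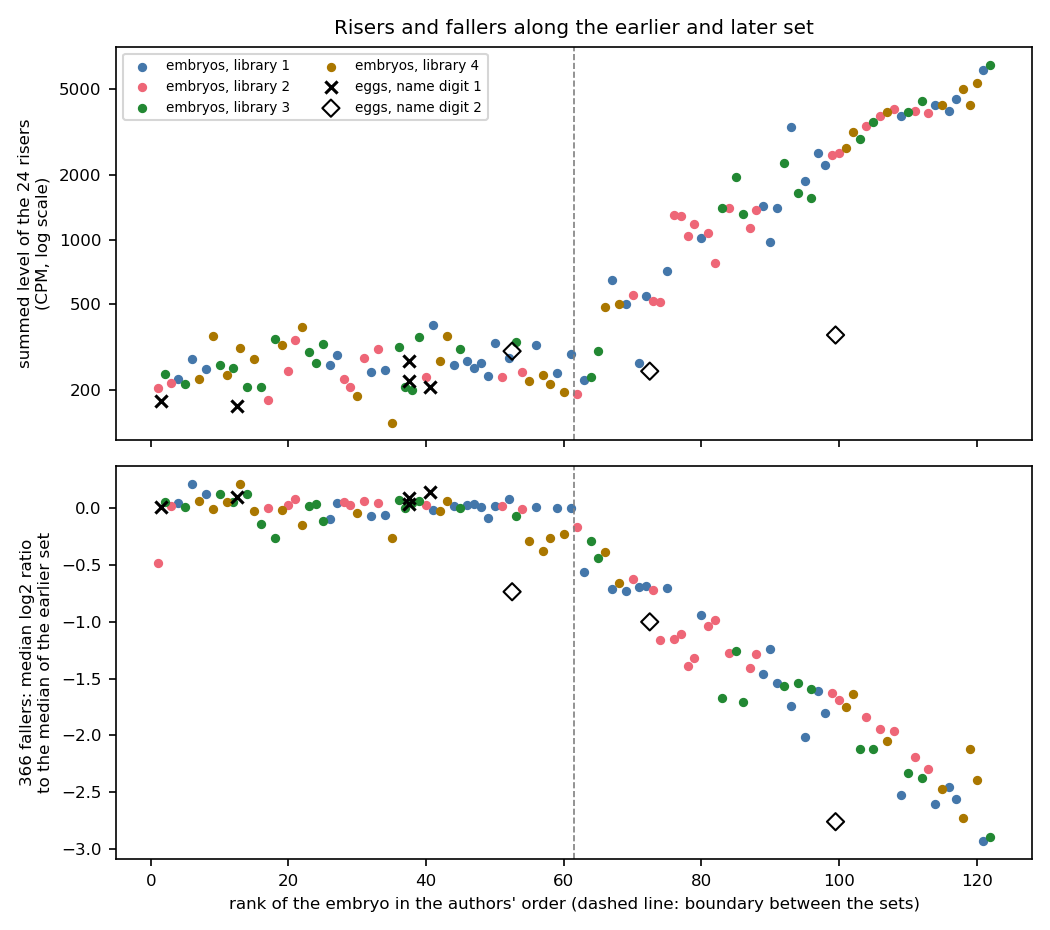
The upper panel plots the summed level of the 24 risers in CPM on a log axis and the lower panel the median log2 ratio of the 366 fallers to the earlier-set median, for each embryo by rank and coloured by library, with the 8 eggs in black at their place in the order. The last embryo within the range of the earlier set, taken without rank 1, is that of rank 64 for the fallers and that of rank 71 for the risers, while the 3 eggs with digit 2 are low in the fallers and within the earlier-set range in the risers.

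The 5 embryos of the later set with digit 1 lay near the earlier set in both measures. Their riser sums were 191.3, 230, 303, 485 and 501 CPM in order of rank, so that 3 of the 5 lay within the range of the earlier set. Their faller medians were -0.16, -0.29, -0.43, -0.38 and -0.66, so that 3 of the 5 lay below the earlier set without rank 1, and 1 of the 5 with it. When only embryos with digit 1 were compared, 61 against 5, 159 of the 366 fallers were called lower by edgeR and 363 were lower in sign. Of the 24 risers 1 was called higher. Over all 6094 genes of that comparison 206 were called lower and 28 higher, and the share lower in sign is not given. Risers and fallers were chosen from values that include these embryos, so a shared sign partly follows from the choice and is no separate test. With 5 embryos in the smaller group fewer calls can be made, and the difference between risers and fallers in this comparison was not tested.

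The 12 largest rises among called genes seen in at least 50% of later-set embryos were those of amos, CG14014, CG18269, scw, bnk, dunk, CG15876, sc, CG13000, CG15382, CG15480 and Brd, with log2 fold changes from 6.31 down to 4.15. The proneural gene amos (FBgn0003270, chr2L:18596136-18596921 in BDGP6, 1 exon), which encodes a transcription factor of sense organ precursors, had a lowest, median and highest level of 0, 0 and 2.43 CPM in the earlier set and of 0, 31.3 and 76.2 CPM in the later set. Of the 61 embryos of the later set, 56 were above every embryo of the earlier set. Its log2 fold change was 6.31 ± 0.35 (SE; adjusted p = 2.09e-34, edgeR). Its mean was lower again later, at 15.1 CPM over the next 62 embryos and 1.16 CPM over the last 61 of the order.

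CG15876 (FBgn0035569, chr3L:4694205-4694845, 1 exon), whose role is not given here, was the most abundant of these 12. It was at 0, 9.06 and 44.95 CPM (lowest, median, highest) in the earlier set and at 8.22, 280 and 971 CPM in the later set, where 56 embryos exceeded the earlier set. The eggs held between 2.71 and 17.99 CPM. Its log2 fold change was 5.09 ± 0.24 (adjusted p = 2.92e-40, edgeR). CG14014 and CG18269 are single-exon genes next to each other on chromosome arm 2L (chr2L:5549709-5550835 and chr2L:5551838-5552756), and they had medians of 0.835 and 0.867 CPM in the earlier set and of 35.8 and 42.3 CPM in the later set.

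Genes of the X-chromosome count, which tell the embryo its number of X chromosomes and so its sex, were among the risers. Of 5 members of this list, sc, sisA, run and upd1 rose and Sxl, the switch gene they act on, fell. The proneural gene sc (FBgn0004170, chrX:396060-397497) was at 0, 5.99 and 20.5 CPM in the earlier set and at 1.50, 109.3 and 565 CPM in the later set, a log2 fold change of 4.59 ± 0.27 (adjusted p = 7.12e-32, edgeR). In 48 of 61 embryos of the later set it was above the earlier set. sisA, run and upd1 were too low for the filter on counts and were called in the fit without that filter, in which 124 of 10995 genes were at least 2-fold higher (1.13%) and 512 at least 2-fold lower (4.66%). sisA, a bZIP factor, went from a median of 0 to 10.8 CPM and was at 0 in all 8 eggs, run from 1.16 to 25.4 CPM, and upd1, a ligand of the JAK/STAT pathway, from 1.93 to 16.3 CPM. Sxl was at 130.6 CPM in the earlier set and 88.9 CPM in the later set (medians), with a log2 fold change of -0.53 ± 0.06 (adjusted p = 3.55e-13, edgeR), and 43 embryos of the later set were below the earlier set. The autosomal repressor dpn, which counters the X-linked signals, rose from a median of 11.4 to 62.3 CPM.

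Genes of cell formation and of the pause in mitosis rose in 6 of 6 members with counts. Over all genes 41.8% were called higher with the filter and 16.9% without it. bnk (FBgn0004389, chr3R:31193362-31194389), which shapes the actin network of the forming cells, was at 0, 1.40 and 6.83 CPM in the earlier set and at 0.747, 46.4 and 302 CPM in the later set, a log2 fold change of 5.36 ± 0.31 (adjusted p = 1.01e-32, edgeR). nullo (FBgn0004143, chrX:7049476-7050321), which stabilises the advancing membrane front, was at 0, 0 and 2.41 CPM and then at 0, 23.3 and 153.9 CPM, and no egg had a UMI of it. In the fit without the filter its log2 fold change was 6.57 ± 0.43 (adjusted p = 4.9e-29, edgeR). For bnk 56 and for nullo 51 of the 61 embryos of the later set lay above the earlier set. halo, a regulator of lipid droplet transport, rose by a log2 fold change of 3.05, slam, which drives membrane growth, by 0.76 and Z600 (frühstart), which halts mitosis, by 1.30. Of the 5 members above the filter, 4 were also called higher with spike-in scaling, beside 31 of all 5682 tested genes. dunk, which organises myosin in the same process and was not on the list, rose from a median of 2.29 to 64.5 CPM with a log2 fold change of 5.27 ± 0.30.

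Dorsoventral genes split by member. Of 21, 12 were called higher, 1 lower and 8 neither. All but scw were below the filter and come from the fit without it, in which 16.9% of all genes were called higher and 19% lower. scw, a BMP ligand (FBgn0005590, chr2L:19699379-19700968), was at 0, 1.49 and 12.1 CPM and then at 0.747, 52.9 and 308 CPM, a log2 fold change of 5.46 ± 0.35 (adjusted p = 1.96e-29, edgeR). zen2, tsg, zen, tld and sna rose by 2.87 to 5.40 on the log2 scale, and dpp, sog and twi by 1.54 to 1.89. ush, a cofactor of GATA factors, fell, with a log2 fold change of -1.11 ± 0.13 (adjusted p = 2.32e-13, edgeR without the filter) and medians of 12.2 and 4.604 CPM.

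Segmentation genes also rose in part. Of 7 gap and terminal genes, tll, gt, hkb, Kr and kni were called higher in the fit without the filter, with log2 fold changes from 1.53 to 3.60, while hb fell by 0.23 and knrl was not called. Of 8 pair-rule genes, 6 were called higher, led by eve at 4.17 and followed by ftz at 3.02, h at 2.98 and odd at 1.72. Of 6 head gap genes, 4 were called, of which slp1 had the largest change at 3.12. Over all genes 16.9% were called higher in the fit without the filter and 41.8% in the fit with it. Levels stayed low. The median of eve in the later set was 11.5 CPM, of tll 12.5 CPM and of gt 15.2 CPM. Means over the next 62 embryos of the order were higher than over the later set for 23 of the 24 risers, all but amos.

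The Bearded family, small inhibitors of the ubiquitin ligase Neuralized, rose in 5 of the 7 members listed in the files. Brd (FBgn0000216, chr3L:14972667-14973198) was at 0, 6.67 and 25.3 CPM and then at 0, 145.4 and 289 CPM, a log2 fold change of 4.15 ± 0.22 (adjusted p = 4.12e-35, edgeR). BobA (chr3L:14945499-14946125) and E(spl)m4-BFM rose by 3.25 and 3.22, and Ocho and Tom, called without the filter, by 3.31 and 1.06. BobA has near-identical neighbours, BobB and BobC, that were not analysed here, so its counts may hold reads of theirs. In a list of further early zygotic genes 23 of 23 members in the files were called higher. Of these, 9 were above the filter and 14 were called in the fit without it. For both lists the shares called higher over all genes were 41.8% with the filter and 16.9% without it.

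Over all 8 zygotic lists 84 of 87 members were in the files. The filter passed 23, of which 21 were called higher and 2 lower, with a median log2 fold change of 3.25 beside 0.07 over all tested genes. The fit without the filter called a further 44 higher and 1 lower of 60 and did not call 15, and 1 member had no UMI. Over all genes of that fit 16.9% were called higher and 19% lower. The lists overlap with the risers by choice, since these genes are known for early transcription and were listed with results of these data known, and 17 of the 24 risers were on them.

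**Figure D3:**
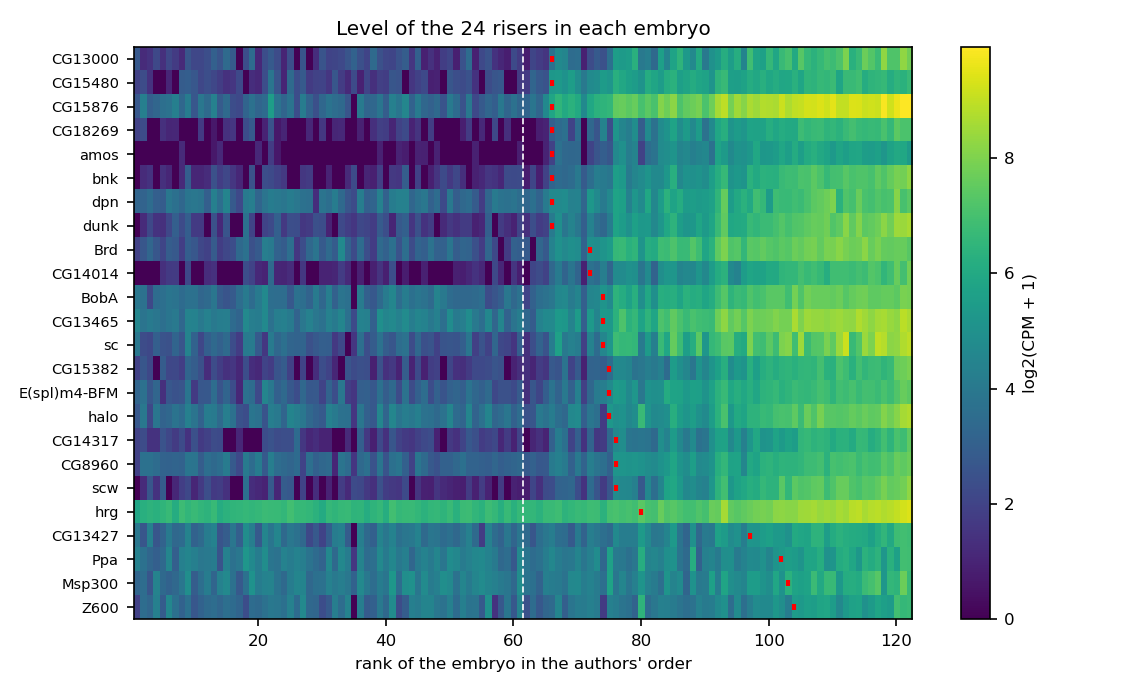
The heat map gives log2(CPM + 1) of the 24 risers, in rows, in each embryo of both sets, in columns by rank, with the boundary of the sets dashed. Red marks show the first of 3 successive embryos above the highest of the earlier set, which run from rank 66 for amos, bnk, dunk, dpn, CG13000, CG15480, CG15876 and CG18269 to rank 104 for Z600.

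Risers differed in the rank at which they passed the highest level of the earlier set. Taking the first of 3 successive embryos above the highest embryo of the earlier set as the start, 8 risers started at rank 66, and BobA, CG13465 and sc at rank 74. scw, CG8960 and CG14317 started at rank 76, hrg at rank 80, CG13427 at rank 97, Ppa at rank 102, Msp300 at rank 103 and Z600 at rank 104. The start depends on the highest level of a gene in the earlier set, so starts of different genes are not on a common scale. That level was 121.4 CPM for hrg, beside a median of 93.9 CPM, and 44.95 CPM for CG15876, which started at rank 66. amos and Z600 mark the ends of the range of starts. In the first 20 embryos of the later set amos was above the earlier set in 15, while Z600 was above it in 1 of these, in 1 of the next 20 and in 18 of the last 21.

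Of the 24 risers 19 have a single exon in their longest annotated transcript, or 79.2%, against 9.17% of all tested genes, and their median gene span was 969 bases against 2858 bases. Of the fallers 15.0% have a single exon and the median span was 1926 bases. In the fit without the filter 58.1% of 124 risers and 14.4% of 10995 genes have a single exon. The share on the X chromosome was 8.33% of risers, 20.3% of fallers and 18.2% of all tested genes. These shares are descriptions of the sets.

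The 12 largest falls were those of hoip, CG31075, Mis12, CG14543, P32, Smyd5, CG4813, Jheh3, CG15653, Sirt2, Eip71CD and Ccs, with log2 fold changes from -3.18 to -2.49. hoip (FBgn0286786, chr2L:9699791-9700459), a component of small nuclear and nucleolar ribonucleoproteins, was at 277 CPM in the median embryo of the earlier set, where the lowest was 131.3 CPM without rank 1 and the highest 397 CPM. In the later set its lowest, median and highest levels were 0, 13.7 and 227 CPM, and 60 of 61 embryos were below every earlier-set embryo other than rank 1, which itself had 8.50 CPM. Its log2 fold change was -3.18 ± 0.17 (adjusted p = 2.61e-36, edgeR). P32 (FBgn0034259, chr2R:17671309-17672640), a mitochondrial and chromatin-bound protein, was at 80.2, 162.5 and 243.5 CPM and then at 1.26, 15.0 and 124.1 CPM, with 59 embryos below the earlier set and a log2 fold change of -2.79 ± 0.14 (adjusted p = 1.07e-37, edgeR).

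The other large falls cover unrelated roles. Mis12 encodes a kinetochore subunit, Sirt2 a deacetylase, Jheh3 an epoxide hydrolase of juvenile hormone, Eip71CD a methionine sulfoxide reductase and Ccs a copper chaperone. CG31075 went from a median of 46.8 to 3.41 CPM and Mis12 from 49.3 to 2.80 CPM, and in the last 21 embryos of the later set the median of Mis12 was 0. Among genes of at least 100 CPM the largest falls were those of hoip, P32, CG15047, CG3652, NAT1 and CG14931. NAT1, a relative of the translation factor eIF4G, had a median of 508 CPM in the earlier set and ran from 47.1 to 361 CPM in the later set, and its mean over the last 61 embryos of the order was 418 CPM, while CG15047 and CG14931 had means of 1.49 and 1.06 CPM there.

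Maternal determinants of the body axes moved in both directions. exu (FBgn0000615, chr2R:20667427-20671083), needed to localise bcd RNA, was at 985, 1395 and 1694 CPM in the earlier set and at 77.4, 317 and 1144 CPM in the later set, and 59 of 61 embryos were below the earlier set. Its log2 fold change was -1.92 ± 0.12 (adjusted p = 4.72e-30, edgeR). trk, a component of Torso signalling, fell by 1.21 and nos, the posterior determinant, by 0.99. bcd, the anterior morphogen, was called higher at 0.34. None of the 6 list members called higher was called with spike-in scaling, which called 31 of all 5682 tested genes higher. In the list 4 of 10 tested members were lower and 6 higher, beside 28.5% and 41.8% of all tested genes.

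Germ plasm RNAs were lower in 7 of 15 tested members and higher in 4, beside 28.5% and 41.8% of all tested genes. With spike-in scaling 4 were lower and 0 higher, beside 897 and 31 of all 5682 tested genes. vas (FBgn0283442, chr2L:15061656-15074311), an RNA helicase of the germ line, was at 193.1, 341.5 and 470 CPM and then at 37.9, 115.3 and 242.5 CPM, with 52 embryos below the earlier set and a log2 fold change of -1.43 ± 0.07 (adjusted p = 7.8e-37, edgeR). It shares its strand and part of its span with solo, so reads of the 2 genes may be split between them. tud, a scaffold of the germ plasm, fell by 0.88. The rise of CycB, at 0.42, was not called with spike-in scaling.

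Regulators of egg activation were lower in 5 of 10 members, beside 28.5% of all tested genes, and in 3 of 10 with spike-in scaling. cort, a female meiotic activator of the anaphase-promoting complex, went from 20.2, 46.9 and 66.5 CPM to 0, 12.1 and 45.6 CPM, a log2 fold change of -1.61 ± 0.11 (adjusted p = 3.7e-27, edgeR). png, the kinase that triggers translation of maternal RNAs at activation, fell by 1.00 and CanA-14F, a calcineurin subunit, by 0.56. In the list of RNA repression and decay factors 17 of 22 tested members were called higher and 2 lower, beside 41.8% and 28.5% of all tested genes. The changes were small, such as 0.28 for smg, 0.31 for brat and 0.38 for AGO1. With spike-in scaling none was called higher. That scaling called 31 of all 5682 tested genes higher and 897 lower.

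Glycolytic enzymes fell in 7 of 11 tested members, 4 of them at least 2-fold, beside 28.5% and 6.44% of all tested genes. Tpi had medians of 190 and 49.6 CPM (log2 fold change -1.58 ± 0.11), Pgi 206 and 77.6 CPM (-1.32 ± 0.10), Gapdh2 972 and 381 CPM (-1.20 ± 0.09) and Pgk 184.2 and 78.5 CPM (-1.07 ± 0.09). All 4 had an adjusted p of at most 2.73e-21 (edgeR). One gene, Ald1 (aldolase), was called higher, and Pfk, Hex-A and Eno were not called. Of the licensing factors of replication 9 of 16 were lower, led by Orc4 at -1.22, Orc2 at -1.05 and Mcm3 at -0.84, and 5 were higher. Over all tested genes 28.5% were called lower and 41.8% higher. With spike-in scaling 4 glycolytic and 6 licensing genes were lower, beside 897 of all 5682 tested genes. The list median was -0.28 for glycolysis and -0.24 for replication licensing, beside 0.07 over all tested genes.

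The small heat shock gene Hsp26 went from 891, 1306 and 1837 CPM to 206, 605 and 1432 CPM, a log2 fold change of -1.04 ± 0.08 (adjusted p = 9.71e-25, edgeR), and Hsp60A fell by 0.72. Subunits of the CCT chaperonin were lower in 7 of 8, beside 28.5% of all tested genes. The falls were 0.56 for CCT1, 0.54 for CCT2 and less for the others. With spike-in scaling 2 of 8 were lower. That scaling called 897 of all 5682 tested genes lower and 31 higher, which stands beside each spike-in count of this paragraph. Of 31 tested proteasome genes 11 were lower and 10 higher, beside 28.5% and 41.8% of all tested genes, and 3 were lower and 0 higher with spike-ins. The largest changes there were those of Rpn11 at -1.08 and Rpn7 at -0.98. Of 21 cell cycle genes 5 were lower and 13 higher, beside 28.5% and 41.8% of all tested genes. Among those lower were cdc14 at -1.27 and the checkpoint kinase mei-41 at -0.85. With spike-in scaling 2 cell cycle genes were lower and 0 higher. Among chromatin genes mh, a protease of DNA repair, fell by 1.29 and the thioredoxin dhd, which helps to unpack sperm chromatin, by 0.85 from a median of 3187 CPM. Of 16 tested subunits of the vacuolar ATPase 12 were called higher and 2 lower, and of 7 tested genes of the Toll pathway 4 were higher. Over all tested genes 41.8% were called higher and 28.5% lower. Again none of these was called higher under spike-in scaling. zld, the activator of the first zygotic genes, had a log2 fold change of 0.17.

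**Figure D4:**
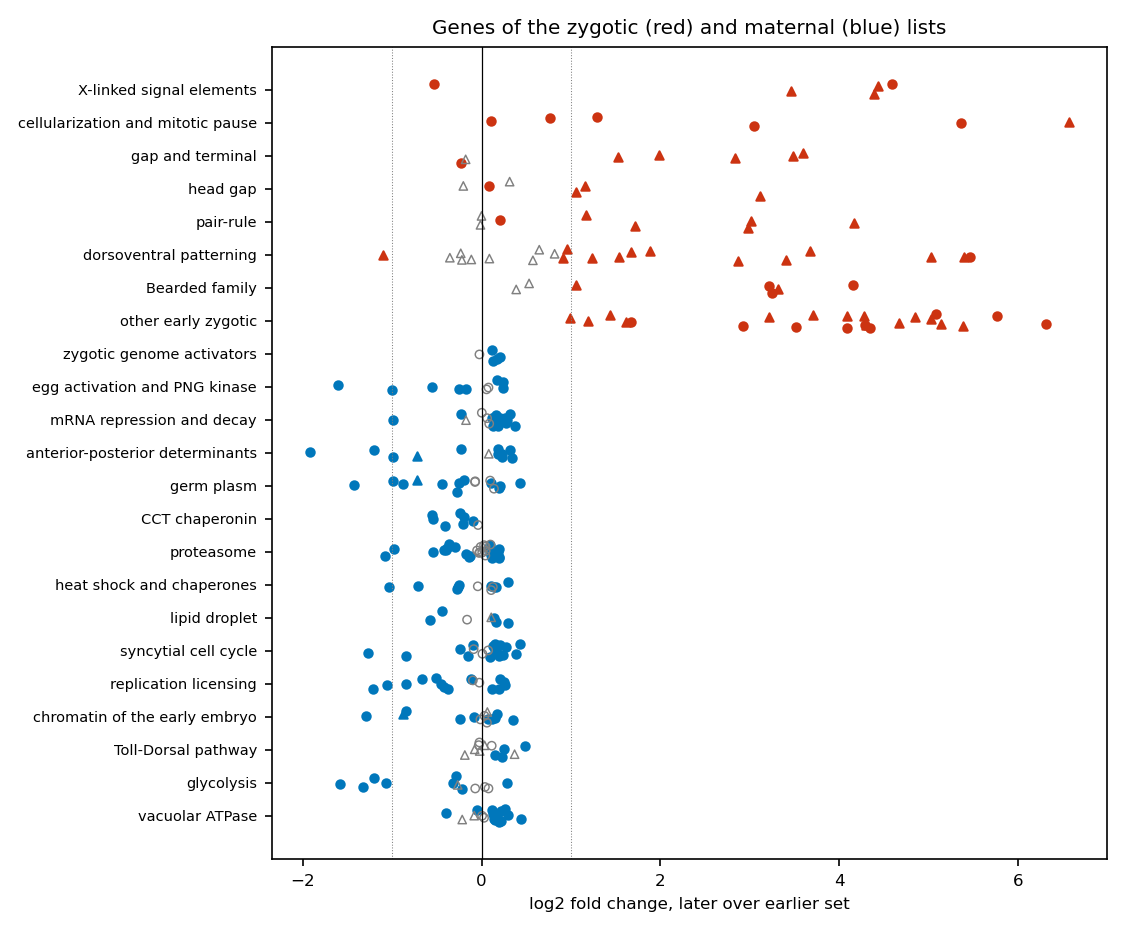
Each symbol is a gene of a zygotic list (red) or maternal list (blue) with its log2 fold change of the later over the earlier set on the horizontal axis; filled symbols passed the adjusted p of 0.05, open ones did not, circles passed the filter on counts and triangles come from the fit without it. Zygotic genes spread to 6.57 and maternal genes to -1.92, and calls among maternal genes on the higher side reach 0.48 for tub.

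The eggs with digit 2 in their names were low in the fallers and within the earlier set in the risers. The 5 eggs with digit 1 had faller medians between 0.01 and 0.14, within the range of the earlier set, and riser sums between 167.7 and 271 CPM. The 3 eggs with digit 2 had faller medians of -0.74, -1.001 and -2.76 and riser sums of 303, 244 and 360 CPM. Against the median of the digit 1 eggs, with 1 CPM added, the last of these had 358 of 366 fallers (97.8%) at least 2-fold lower, beside 23.7% of all tested genes, and the other two had 38.3% and 53.6% of fallers beside 4.42% and 3.82% of tested genes. That egg stood in the order after 38 embryos of the later set, where the 10 nearest embryos had riser sums between 1564 and 3360 CPM and faller medians between -2.12 and -1.59. It was the shallowest of the eggs with 278007 UMIs. With 3 eggs of digit 2, no test was made, and the age of the eggs is not given.

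Allele values split the RNA of a gene by parental origin, and paternal RNA can only come from the zygotic genome. The values are normalized whole numbers without a fixed unit, from variants that separate the parental lines. The paternal share of all allele values of an embryo was 0.967% ± 0.310 (SD, n = 61) in the earlier set, 1.36% ± 0.533 (SD, n = 61) in the later set and 0.826% ± 0.312 (SD, n = 8) in the eggs, which have no father. The share in eggs is the background measured the same way. In a two-sided permutation test within libraries the difference of 0.392 percentage points had p = 1e-05, the smallest that 100000 resamples can give. Among embryos of digit 1 alone the difference was 0.252 points (permutation p = 0.128). The order came from transcriptomes of these same embryos, so labels of the sets are not freely exchangeable. The permutation p-values of paternal values, here and below, can therefore be too small and describe only how far the sets stand apart. The groups overlapped. The range was 0.411% to 2.01% in the earlier set and 0.576% to 3.20% in the later set, with 10 and 27 embryos above the highest egg.

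The paternal share rose within the later set, with means of 1.05% in its first 20 embryos, 1.19% in the next 20 and 1.81% in the last 21, where 18 of 21 embryos were above the highest egg. Within the libraries the difference was 0.234 points in library 1 (permutation p = 0.0438), 0.310 in library 2 (permutation p = 0.0292), 0.375 in library 3 (permutation p = 0.0510) and 0.913 in library 4 (permutation p = 7e-05). The 9 later-set embryos of library 4 were the latest of the 4 libraries by median rank. When genes with over 10% paternal signal in eggs were left out, the difference was 0.128 points (permutation p = 0.00113). That limit asks for no minimum value in eggs, so it also leaves out genes that are low in eggs and rise later. Examples are CG14014, with egg means of 0.5 paternal and 0.625 maternal, and Brd, with 3.5 and 3.75. The part of such genes in the smaller difference was not tested.

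Per gene, the mean paternal value was compared by permutation within libraries at an adjusted p under 0.05. It was higher in the later set for 46 of 1806 genes (2.55%) and lower for 9 (0.498%). The limit set by the order holds for these calls too, so they describe only how far the sets stand apart. The number called higher was 17 without genes of over 10% paternal signal in eggs, 25 of 1562 genes with a mean value of at least 5, and 0 in embryos of digit 1 alone, where 50 genes had an unadjusted permutation p under 0.05. Leaving out genes by their egg signal also removes Brd and CG14014 from the test. In 43 of the 46 the difference was positive in all 4 libraries, from which together these genes were called, so that this is no separate test. The RNA counts of 36 of these 46 genes were called higher, of 5 lower and of 5 neither. The 8 largest rises were those of hrg, Brd, CG14014, hb, CG4570, CG8960, kuk and bard (CG14317).

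The paternal value of hrg, the poly(A) polymerase gene, had a lowest, median and highest value of 0, 11 and 24 in the earlier set and of 0, 46 and 295 in the later set, and 43 of 61 embryos were above the earlier set. The eggs reached 21, so its values in the earlier set overlap those of the eggs. In counts hrg rose by a log2 fold change of 1.43 ± 0.12. Brd had paternal values of 0, 4 and 15 and then of 0, 44 and 167. Its maternal values were alike, with medians of 4 and 45. In the eggs the medians of Brd were 3.5 paternal and 4 maternal, and its paternal value reached 9. A near-equal split of Brd by itself therefore does not show parental origin. CG14014 had paternal values of 0, 0 and 5 and then a median of 20, with 50 of 61 embryos above the earlier set. Its maternal medians were 1 and 11. The paternal value of CG14014 reached 3 in the eggs, with means of 0.5 paternal and 0.625 maternal.

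Paternal values also rose in 3 genes with a large maternal value whose counts changed little. CG4570 (FBgn0037844, chr3R:10856807-10858066), whose role is not given here, had paternal values of 0, 1 and 5 in the earlier set and 0, 13 and 86 in the later set, with 43 embryos above the earlier set. The eggs reached 3. Its maternal medians were 438 and 393, and its counts were called lower, at -0.18 on the log2 scale. kuk, a nuclear lamina protein that elongates nuclei during cell formation, had paternal values of 0, 4 and 15 and then of 0, 10 and 103, with maternal medians of 244 and 235 and counts called higher at a log2 fold change of 0.21. Its paternal value reached 11 in the eggs. In CG8929 the paternal median went from 4 to 8 and reached 21 in the last 21 embryos, beside a highest value of 8 in the eggs, and its counts were called higher at 0.13.

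The opposite trend of the alleles was seen in 3 genes at low values. MsrA, listed as Eip71CD in the counts, had a maternal median of 15 in the earlier set and 1 in the later set, and its paternal value was above 0 in 1 embryo of the earlier set and in 22 of the later set, with a highest value of 2. Cdk8, a kinase of the Mediator complex, went from a maternal median of 12 to 3 while its paternal value was above 0 in 5 and 19 embryos, and CG7148 from a maternal mean of 3.02 to 0.951 with 7 and 22 such embryos. In the 22 later-set embryos with a paternal value of MsrA its maternal median was 0, against 2 in the other 39. For Cdk8 the maternal medians were 0 in the 19 and 4.5 in the other 42, and for CG7148 both were 0. The part of the normalization in these low values was not tested. Counts of MsrA, Cdk8 and CG7148 fell by 2.52, 1.41 and 1.34 on the log2 scale. These 3 were chosen after their values were seen, as were the genes of the next paragraph.

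The paternal value of hb, a gap gene with maternal and zygotic transcripts, moved in a step. It was 0 in all 61 embryos of the earlier set and in the first 39 of the later set, and between 37 and 136 in the 22 that follow. The maternal value had a median of 53 in the 39 embryos without paternal value and of 218 in the other 22, but 5 of the 39, from rank 83 to rank 100, already had maternal values of 211 to 294, and the other 34 had at most 89. Over the sets, the counts of hb had medians of 463 and 377 CPM. The part of variant calling in this step was not tested. RhoGEF64C rose in paternal value from a mean of 0.0656 to 5.67 although its counts were not called (log2 fold change -0.07), and CG15876, CG13711 and CG13712, which were called higher, lie within its annotated span. CG15375 on the X chromosome fell from a paternal mean of 62.5 to 25.8 with a mean of 26.8 in eggs, and no maternal value was seen in the later set. Its paternal signal in eggs cannot come from a father.

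**Figure D5:**
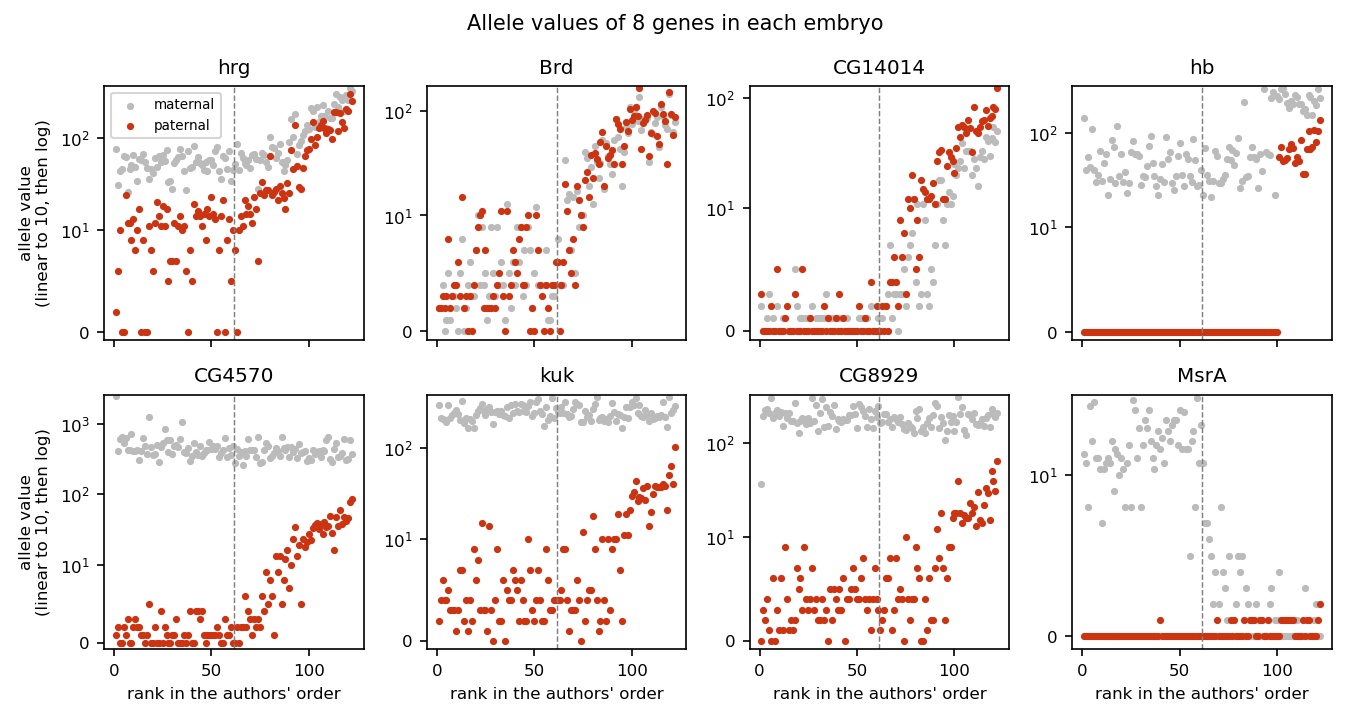
Maternal (grey) and paternal (red) allele values of 8 genes are plotted for each embryo of both sets by rank, with an axis that is linear to 10 and logarithmic above. Paternal values rise from the background in the later set, gradually in hrg, Brd, CG14014, CG4570, kuk and CG8929 and in a step in hb. In MsrA they are at most 2, and the later-set embryos that have them have a maternal median of 0.

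Markers of other sources of RNA were low. Of 20 markers of follicle cells and yolk, 13 had no UMI in the earlier set and 14 none in the later set, and their summed level was at most 3.44 and 1.48 CPM. All 12 sperm and testis markers were at 0 in both sets and in the eggs. The 12 markers of differentiated tissue summed to between 18.7 and 123.9 CPM in the earlier set and between 10.0 and 114.4 CPM in the later set, mostly from Mlc2 and up, which were at means of 21.1 and 18.7 CPM and then of 15.5 and 15.0 CPM.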

How the data were processed

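The authors deposited UMI counts for each gene and well barcode, and the names of these count tables give STARsolo; per the submitters' processing notes, Trim Galore 0.6.10, SAMtools 1.17, Picard, GATK 4.4.0.0 and R 4.2.1 were used with builds dm6 and BDGP6. Values of the deposited order and allele tables are whole numbers, normalized by the authors in a way not given in the sources used here, and were treated as a score, with entries of 0.1 read as 0. Barcodes were joined to embryos through the deposited barcode table, and 384 barcode columns of no listed individual were left out. Spike-ins stayed out of totals and tests. The largest count was 4092 of the 4096 that 6-base UMIs allow, so abundant genes are compressed.

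The sets were compared with edgeR 4.0.16 (TMM, filterByExpr, glmQLFit and glmQLFTest, library as a covariate, Benjamini-Hochberg adjusted p under 0.05, R 4.3.3), with DESeq2 1.42.0 as an alternative. Each embryo is 1 animal and 1 replicate, and library was treated as a batch. The labels do not say how embryos were allotted to libraries. CPM is the count per 1000000 gene UMIs of an embryo. The fit was tested on simulated counts for this comparison, where 193 of 200 changed genes among 5682 were recovered with 10 false calls. The simulated embryos were independent, with no library effect and no order. The number of false calls therefore does not carry over to sets cut from the order. Paternal values were compared over 1806 genes with a mean summed allele value of at least 1 by permutation within libraries (100000 resamples). Coordinates and exons are those of the BDGP6.54 annotation, release 115. No sequence was used.

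Genes were named by rule: members of the lists, the 12 called genes that rose most and the 12 that fell most, if detected in 50% or more of the embryos of the higher set, the 6 largest and 6 smallest of at least 100 CPM, and the 8 largest rises of the paternal value. The onset class (under 1 CPM in eggs, under 2 CPM in the earlier set) held 3 of 24 risers, and 74 of 124 without the filter. Members and lists were chosen with earlier results of these data known. Counting by strand is not stated in the sources used here, so genes that overlap others, such as scw, bnk, nullo, sc, exu and vas, may share reads.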

Additional observations from a re-analysis of the deposited data

Results flagged for a closer look

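In the 8 eggs, the median log2 ratio of the 366 fallers to the earlier-set median was -2.76 in 1 egg with digit 2 in its name, far below the other 7, which lay between -1.001 and 0.14. It was also the egg with the fewest UMIs, 278007.

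Across the 4 libraries, CG8960 had a log2 ratio of the later to the earlier set of 3.303 in library 4, apart from 2.713, 2.606 and 2.723 in the other libraries. P32 had -2.926 in library 1, apart from -2.635, -2.617 and -2.616. Chance alone sets apart about 1 in 20 such groups, and 117 were examined.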

How the results depend on the processing

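The 2-fold calls kept their number within 1.5 times under DESeq2, RLE factors, library totals, spike-in scaling, the correction for UMI collisions, a depth covariate, no library covariate and without ranks 52 to 71, with 24 to 34 risers and 355 to 498 fallers. Without the filter there were 124 risers, with counts summed per library and set 104, and after thinning to 300000 UMIs 8. All calls higher and lower were 31 and 897 with spike-in scaling, and calls higher were 60 with spike-in scaling of embryos with at least 200 spike-in UMIs, 1467 after thinning and 1413 with summed counts. Leaving out each library gave 1509 to 2164 calls higher, the lowest without library 3, 1519 to 1709 lower, 22 to 26 risers and 341 to 403 fallers. With embryos of digit 1 alone, 61 against 5, 28 genes were higher, 206 lower, 1 at least 2-fold higher and 8 at least 2-fold lower. In that comparison the value changed sign, with no call, for E(spl)m4-BFM (-0.0345), halo (-0.0813), Msp300 (-0.19), Z600 (-0.41), CG8960 (-0.0109), tll (-0.31), gt (-0.32), Kr (-0.44), kni (-0.21), h (-0.17), sog (-0.53), dpp (-0.26), odd (-0.46), prd (-0.34), Ocho (-0.14), Tom (-0.11), CanA-14F (0.0155), CycB (-0.0901), CycA (-0.0049) and kuk (-0.0572). CG8929 was at -0.0059 with spike-in scaling of embryos with at least 200 spike-in UMIs. The cause of these changes was not tested. Without the embryo of rank 1 the 2-fold calls were 25 and 359, and this alternative, the one without the digit 1 embryos of the later set and the restriction on spike-ins were chosen after seeing the data.

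The difference in paternal share was between 0.299 and 0.463 points when each library was left out, and 0.252 points in embryos of digit 1 alone (permutation p = 0.128). Genes with a higher paternal value numbered 46, with 35 to 41 when a library was left out, 17 without genes of over 10% paternal signal in eggs, 25 with a mean value of at least 5, and 0 in embryos of digit 1 alone, where 50 had an unadjusted permutation p under 0.05. No paired analysis was possible because the labels give the embryos no replicate numbers. Spike-in totals were as low as 19 UMIs in an embryo, which limits that scaling.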

Other observations

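Beyond the later set, the fallers took a median of 0.459% of UMIs over the next 62 embryos of the order and 1.08% over the last 61. Of the 366, 244 had a lower mean over the last 61 than in the later set and the others a higher or equal one. NAT1 is an example of the latter, and exu, at a mean of 17.9 CPM over the last 61, of the former.

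Levels of risers before their start were not 0. In the 8 eggs hrg had a mean of 91.3 CPM, or 37.99% of its later-set mean, while amos had 0.537 CPM or 1.71%. In the earlier set their means were 92.2 and 0.234 CPM.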
